A study of Mus musculus with 6 samples.

Results

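Hypoxia-inducible factors (HIFs) and the enzymes that control them were read on arrays of whole heart RNA from sham and tail-suspended mice. The set held 9 genes: the alpha subunits Hif1a, Epas1 and Hif3a, their partner Arnt, the HIF prolyl hydroxylases Egln1, Egln2 and Egln3, the asparaginyl hydroxylase Hif1an, and Vhl. These 9 were chosen by gene name out of 28909 gene names on the array, with the measured differences between the groups of these same arrays known. Their tail-suspension minus sham differences are therefore given as a description, with no p-value, and counts of members past the threshold of the fit over all probes stand only beside the same share of all probes or genes. The 9 genes were represented by 17 probes of 60 bases, each printed as 1 spot. All 17 probes passed the filter on dim signals, and 15 of them were well above background on all 6 arrays.

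In tail-suspension a mouse hangs by its tail with unloaded hindlimbs, as a model of weightlessness. The tail-suspension group held 3 male C57BL/6 mice suspended for 28 days from an age of 10 weeks. The sham group held 3 male C57BL/6 mice kept unsuspended in the same space with the same feeding. The labels also give an age of 11 weeks for all 6 mice without saying at which point, and name neither transgene nor drug. RNA came from whole cardiac muscle, 1 mouse per array, and was labelled with Cy3. In tissue RNA of this kind, fewer cells of a type and less RNA per cell cannot be told apart.

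HIFs are transcription factors made of an oxygen-regulated alpha subunit and the constitutive beta subunit Arnt. With oxygen present, the Egln enzymes hydroxylate prolines of the alpha subunit, Vhl then binds it within a ubiquitin ligase and the proteasome destroys it, while Hif1an hydroxylates an asparagine that blocks binding of the coactivators Ep300 and Crebbp. This control acts on the protein, so mRNA arrays read the supply of the subunits and enzymes and not HIF activity. Hif3a differs from the other alpha genes in that several of its splice forms lack the transactivation domain and can restrain HIF-dependent transcription, and Egln3 is itself a gene induced through HIF.

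One slide held the 6 arrays, it was scanned once, and no spot reached saturation. The 75th percentile of the processed intensity, which was used to scale each array, lay between 302 and 376. Between 50.9% and 53.4% of probes were well above background. Levels below are the log2 intensity less that percentile, so that 0 is the 75th percentile of an array, and a level of 1 probe cannot be set against the level of another. The 3 sham arrays and tail-suspension array 1 lay in the first row of the slide, and tail-suspension arrays 2 and 3 in the second. Myl2, a defining cardiomyocyte gene, read 9.61 to 9.68 in sham and 9.49 to 9.57 in tail-suspended mouse hearts.

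The probes that carried the largest differences were those of Hif3a and Egln3. Their last 30 bases are shown, read in the direction of the transcript, because the probes of Hif3a sample separate parts of the gene while those of Egln3 lie close together. Capitals mark the hexamer AATAAA, a polyadenylation signal, which these stretches held only in 1 of the Egln3 probes.
Hif3a A_55_P2161423: acttttccctgcgaatgaagagcacgctca
Hif3a A_55_P2025730: cacattttttggttgttgttttggtttttt
Hif3a A_55_P2015541: ataaagacctctccttgttaggcaccagag
Egln3 A_55_P1960916: tcgcaaagaAATAAAgttggtgacagatgc
Egln3 A_52_P387009: ttcttacttggggaacctaattatccagag
On mm9, the build of the files, the Hif3a probes lay on the minus strand at chr7:17636526-17636585, chr7:17620811-17620870 and chr7:17616855-17616914. They were thus listed here from the 5′ to the 3′ side of the gene, with 15655 and 3896 bases between them. The Egln3 probes lay on the minus strand at chr12:55281252-55281311 and chr12:55280953-55281012, with 239 bases between them. Whether a probe lies in coding sequence or beyond the stop codon was not analysed here. Of the 60 bases, the Hif3a probe A_55_P2161423 left 2 of the 3 forward reading frames without a stop codon and the other Hif3a probes 1 each.

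Hif3a stood apart from the other members. Its brightest probe, A_55_P2015541, gave processed intensities of 62.8, 41.0 and 53.0 in sham and 786, 764 and 1157 in tail-suspended mouse hearts. Every tail-suspension array was thus more than an order of magnitude brighter than every sham array at this probe. Scaled, the level was -2.61 ± 0.31 in sham and 1.28 ± 0.31 in tail-suspended mouse hearts (mean ± SD, n = 3 each). The difference was 3.89 ± 0.21 (standard error) on the log2 scale, which is 14.9-fold higher in tail-suspended mouse hearts. Of 17140 genes tested, 14 had a larger rise.

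The other Hif3a probes were dimmer and also higher in tail-suspended mouse hearts. Probe A_55_P2025730 gave intensities of 5.29, 3.10 and 3.12 in sham and 18.5, 32.2 and 34.5 in tail-suspended mouse hearts. None of the sham arrays and all 3 tail-suspension arrays had it well above background (0 of 3 against 3 of 3). On the processed intensity the difference was thus at least 1.57-fold, against a fitted 2.67 ± 0.27 on the log2 scale. That bound sets the mean of the bright group against the lowest signal well above background on each sham array. With normexp, which added an offset of 50 to every intensity, the difference of this probe was only 0.20 on the log2 scale, below that bound. An offset of that size draws the differences of dim probes towards 0 by itself.

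Probe A_55_P2161423, the most 5′ of the Hif3a probes, gave 20.3, 10.6 and 20.2 in sham and 27.4, 51.8 and 57.5 in tail-suspended mouse hearts. Its groups did not overlap, and its difference was 1.20 ± 0.34, with 2 of 3 sham arrays well above background. Probes of the same gene thus agreed in direction and differed in size. With normexp the differences of the 2 dim probes fell to 0.20 each, whereas the brightest probe kept a difference of 2.85. Intensities of the dim probes were 57.5 or less, so the offset of 50 shrinks their differences by construction, and nothing is read from this fall. With slide row as a block the brightest probe gave 3.82, since the comparison then rests on tail-suspension array 1, and the 5′ probe gave 0.64.

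**Figure D1:**
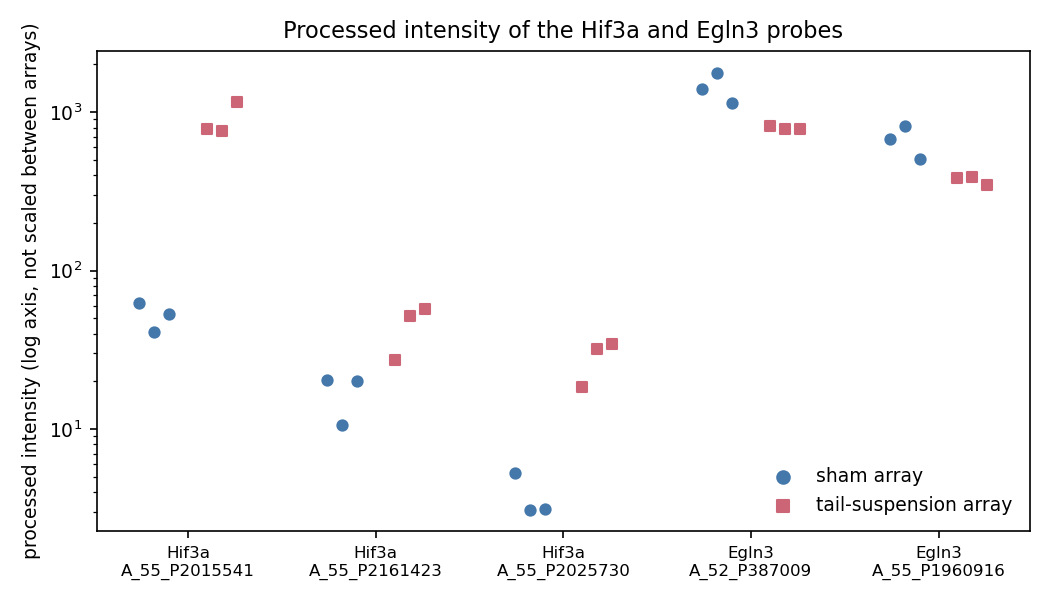
Processed intensity (log axis) of the 3 Hif3a and 2 Egln3 probes on each array, 3 sham (circles) and 3 tail-suspension (squares), before scaling between arrays. At Hif3a A_55_P2015541 the sham arrays lie between 41.0 and 62.8 and the tail-suspension arrays between 764 and 1157. At both Egln3 probes every tail-suspension array lies below every sham array, and heights of different probes are not comparable.

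Hif1a, the alpha subunit found in most cells, was lower in tail-suspended mouse hearts. Its brighter probe A_51_P387608 (chr12:75047269-75047329, plus strand) read 1.52, 1.56 and 1.44 in sham and 1.29, 1.13 and 1.02 in tail-suspended mouse hearts. The groups did not overlap, and the gap between their nearest arrays was 0.15. The difference was -0.36 ± 0.10, which is 1.28-fold lower, and it came to -0.22 with slide row as a block. The other probe, A_55_P2149011, lay 13244 bases upstream, was designed on another transcript and was dim. It gave intensities of 23.4 to 38.0 in sham and 27.4 to 36.2 in tail-suspended mouse hearts, with overlapping groups and a difference of -0.19 ± 0.20.

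Epas1, which encodes HIF-2 alpha and is prominent in endothelial cells, differed little. Its brightest probe A_51_P250058 (chr17:87232615-87232674, plus strand) read 7.33, 7.21 and 7.22 in sham and 7.46, 7.41 and 7.33 in tail-suspended mouse hearts. The highest sham array and the lowest tail-suspension array were nearly level, and the difference was 0.15 ± 0.09. Its other probes gave -0.13 ± 0.12 and 0.06 ± 0.10, with overlapping groups, so the probes of Epas1 did not share a direction. With quantile normalization the brightest probe gave 0.03.

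Arnt, the beta subunit with which alpha subunits pair to bind DNA, also differed little. Probe A_55_P2100895 (chr3:95301081-95301140, plus strand) read 1.85, 1.73 and 1.93 in sham and 1.92, 1.97 and 2.00 in tail-suspended mouse hearts. The groups overlapped, with a difference of 0.12 ± 0.09. The dimmer probe A_55_P2100899 gave 0.20 ± 0.12, again with overlap.

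**Figure D2:**
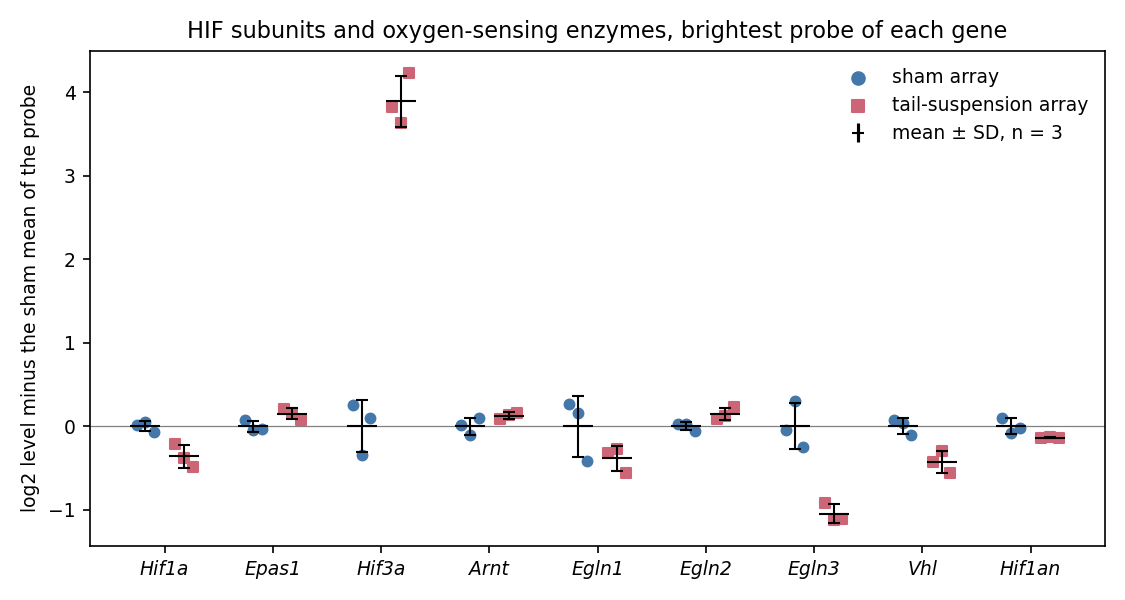
Level of the brightest probe of each member on each array, less the sham mean of that probe (log2). Circles are sham arrays, squares are tail-suspension arrays, and bars give the mean ± SD of 3 arrays. The Hif3a tail-suspension arrays lie near 3.89 above the sham mean and those of Egln3 near 1.05 below it, while the other 7 genes lie within 0.5 of it on average.

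Egln3, the prolyl hydroxylase most readily induced by low oxygen, was lower in tail-suspended mouse hearts at both probes. Probe A_52_P387009 read 2.12, 2.47 and 1.92 in sham and 1.25, 1.05 and 1.06 in tail-suspended mouse hearts. The lowest sham array was 0.67 above the highest tail-suspension array. The difference was -1.05 ± 0.16, which is 2.07-fold lower. Probe A_55_P1960916 read 1.06, 1.36 and 0.75 in sham and 0.17, 0.05 and -0.12 in tail-suspended mouse hearts, a difference of -1.02 ± 0.17. These neighbouring probes gave the same ordering of the groups, and their values share arrays and RNA, so they are not independent measurements. With slide row as a block the differences were -0.92 and -0.89. Of 17140 genes, 327 had a larger fall than Egln3.

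Egln1, the main HIF prolyl hydroxylase under ordinary oxygen, varied most within the sham group among the brightest probes of the 9 genes. Its single probe A_51_P186899 read 2.04, 1.93 and 1.36 in sham and 1.46, 1.5 and 1.22 in tail-suspended mouse hearts. Sham array 3 fell among the tail-suspension arrays, so the groups overlapped, and the difference was -0.38 ± 0.19. Without sham array 3 it was -0.59, on the other side of the threshold used for the counts below, and without sham array 1 it was -0.25. The files place only 13 bases of this probe (chr8:127432487-127432499, minus strand), although the probe has 60 bases.

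Egln2, the third HIF prolyl hydroxylase, was slightly higher at both probes. Probe A_55_P1960924 (chr7:27943678-27943737, minus strand) read 5.03, 5.03 and 4.95 in sham and 5.09, 5.13 and 5.23 in tail-suspended mouse hearts, a difference of 0.15 ± 0.08. The dimmer probe A_55_P2005330 (chr7:27944020-27944079) read 2.22, 2.29 and 2.21 in sham and 2.54, 2.50 and 2.60 in tail-suspended mouse hearts, a difference of 0.31 ± 0.08. Neither probe showed overlap between the groups, beside 44% of all tested probes without overlap. At its brighter probe, 67.1% of all genes lay further from 0 than Egln2. Among the 3 Egln genes, Egln3 was thus lower, Egln2 differed by a small amount, and the groups overlapped at Egln1.

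Vhl, the substrate receptor of the ligase that marks hydroxylated alpha subunits, was lower in tail-suspended mouse hearts. Its probe A_66_P106593 (chr6:113581566-113581625, plus strand) read 1.30, 1.26 and 1.12 in sham and 0.80, 0.93 and 0.67 in tail-suspended mouse hearts. The groups did not overlap, and the difference was -0.43 ± 0.10, which is 1.35-fold lower. It remained -0.43 with slide row as a block.

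Hif1an, the asparaginyl hydroxylase also named FIH, was nearly level. Its probe A_51_P521171 (chr19:44650157-44650216, plus strand) read 0.06, -0.12 and -0.07 in sham and -0.18, -0.17 and -0.19 in tail-suspended mouse hearts. The tail-suspension arrays lay just below the lowest sham array, and the difference was -0.14 ± 0.09.

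**Figure D3:**
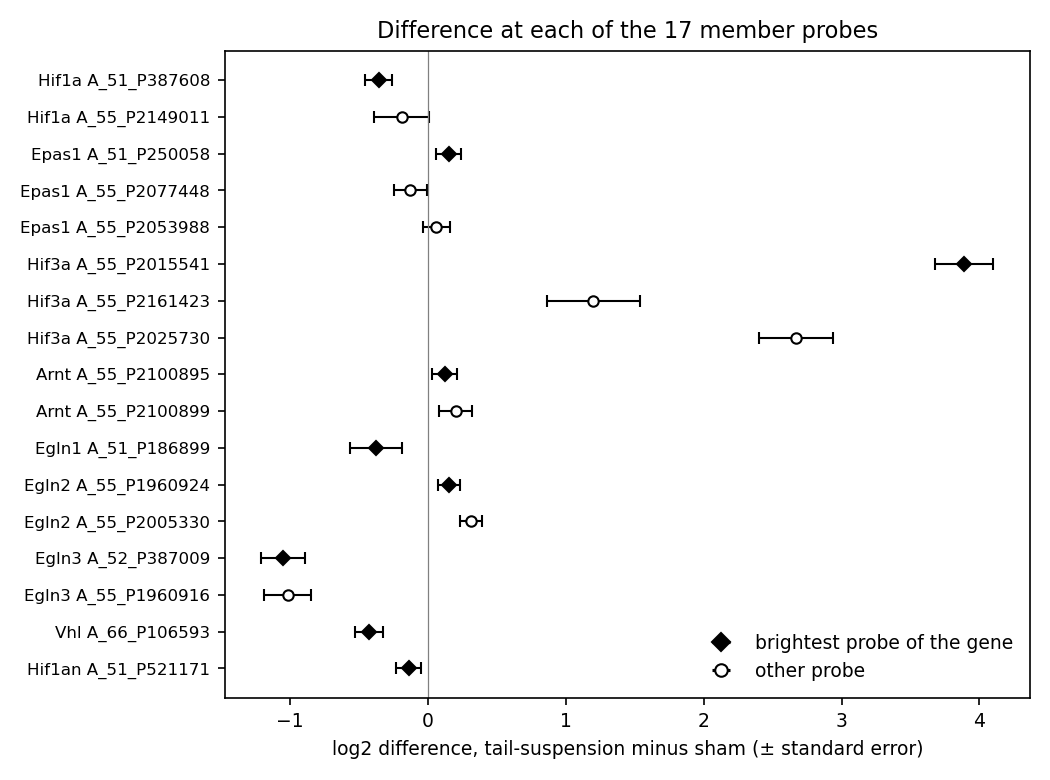
Difference between tail-suspended and sham mouse hearts (log2, ± standard error) at each of the 17 probes of the 9 genes. Filled diamonds are the brightest probe of a gene and open circles its other probes. The 3 Hif3a probes lie at 3.89, 1.20 and 2.67, the Egln3 probes at -1.05 and -1.02, and the rest between -0.43 and 0.31.

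At an adjusted p of 0.05 (limma, Benjamini-Hochberg over all 28032 tested probes), 7 of the 17 probes were called, where 20.4% of all tested probes were called in either direction. One of the 7, Hif3a A_55_P2025730, entered the fit only through the tail-suspension arrays, where it was high. Read by the brightest probe, 1 of the 9 genes was called higher (Hif3a), beside 10.6% of all genes, and 3 were called lower (Hif1a, Egln3 and Vhl), beside 10.5%. The groups did not overlap at 7 of the 9 genes, beside 46.5% of all genes. The median difference of the 9 genes was -0.14, and that of all genes was -0.014. Because the members were chosen with these differences known, nothing is read from the counts. Just inside the threshold lay Hif1a, at -0.36, and just outside it the Hif3a probe A_55_P2161423, at 1.20.

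The profile of Hif3a over the 6 arrays was most like those of Mt2, a metallothionein, Clca1 and Tcf23, among 16295 genes well above background on all arrays. Likeness was the root mean square distance between log2 levels, each less its mean over the 6 arrays, and came to 0.36, 0.36 and 0.42. The genes nearest to Egln3 were Macrod2, Asph and Serpinh1, at 0.064, 0.086 and 0.11. Asph encodes an aspartyl/asparaginyl beta-hydroxylase and Serpinh1 a collagen chaperone. Those nearest to Vhl were Mcts2, Hist1h4i and Daam1, at 0.026, 0.029 and 0.033. With 6 arrays in 2 groups, this distance mainly ranks genes by the size of their difference.

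Genes that HIF is known to induce were called in both directions. Of 44 listed genes, 42 were tested (not Car9 and Epo), of which 11 were higher, 6 were lower and 25 did not pass an adjusted p of 0.05 (limma), beside the 10.6% and 10.5% of all genes called higher and lower. With only probes well above background on all 6 arrays tested, 10 were higher and 6 lower. Their median difference was 0.13. The list was written by hand from general knowledge with earlier results of these data known. In the differences that follow, errors are standard errors and each group held 3 arrays.

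Lox, which crosslinks collagen, had a signal that passed the background flag in 0 of 3 sham and 3 of 3 tail-suspended mouse hearts, so it entered the fit only through the group where it was high. It was at least 4.99-fold higher in tail-suspended mouse hearts on the processed intensity. With normexp its difference was only 0.79 on the log2 scale, below that bound, where the offset of 50 draws dim signals together. Bnip3, a mitophagy receptor, read 6.65, 6.64 and 6.30 in sham and 7.41, 8.07 and 7.68 in tail-suspended mouse hearts, a rise of 1.19 ± 0.19 (limma adjusted p = 0.0107). Ankrd37 rose by 1.14 ± 0.13 (limma adjusted p = 0.00461) and the glucose transporter Slc2a1 by 0.98 ± 0.20 (limma adjusted p = 0.0220). Cited2, which competes with HIF for Ep300, rose by 0.83 ± 0.13 (limma adjusted p = 0.0112). Pdk1, which holds pyruvate back from oxidation in the mitochondria, rose by 0.48 ± 0.12 (limma adjusted p = 0.0357). At each of the genes named so far every tail-suspension array lay above every sham array. Lox, Bnip3, Ankrd37 and Slc2a1 were named partly because their groups did not overlap, so nothing is read from this. The groups did not overlap at 23 of the 42 tested induced genes, beside 46.5% of all genes.

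Among the genes that fell, Apln, the ligand of the apelin receptor, read 1.66, 1.5 and 1.79 in sham and -1.20, -2.29 and -2.65 in tail-suspended mouse hearts. Its difference was -3.70 ± 0.35 (limma adjusted p = 0.00282). The transferrin receptor Tfrc gave -2.36 ± 0.50 (limma adjusted p = 0.0243), with tail-suspension arrays spread from -1.19 to 1.02, and -1.21 with slide row as a block (limma adjusted p = 0.148). Ak4, a mitochondrial adenylate kinase, gave -0.82 ± 0.16 (limma adjusted p = 0.0187), and Ppp1r3c, which targets a phosphatase to glycogen, gave -0.69 ± 0.19 (limma adjusted p = 0.0455). Other induced genes did not pass. Vegfa gave -0.15 ± 0.12 (limma adjusted p = 0.378), and Adm, the gene of adrenomedullin, gave 0.85 ± 0.26 (limma adjusted p = 0.0612). The glycolytic genes Ldha and Pgk1 gave 0.13 ± 0.11 and -0.16 ± 0.13 (limma adjusted p = 0.421 and 0.412). The Pgk1 probe was placed at chr3:57906830-57906894, a span of 65 bases, and whether it reads Pgk1 alone was not checked.

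**Figure D4:**
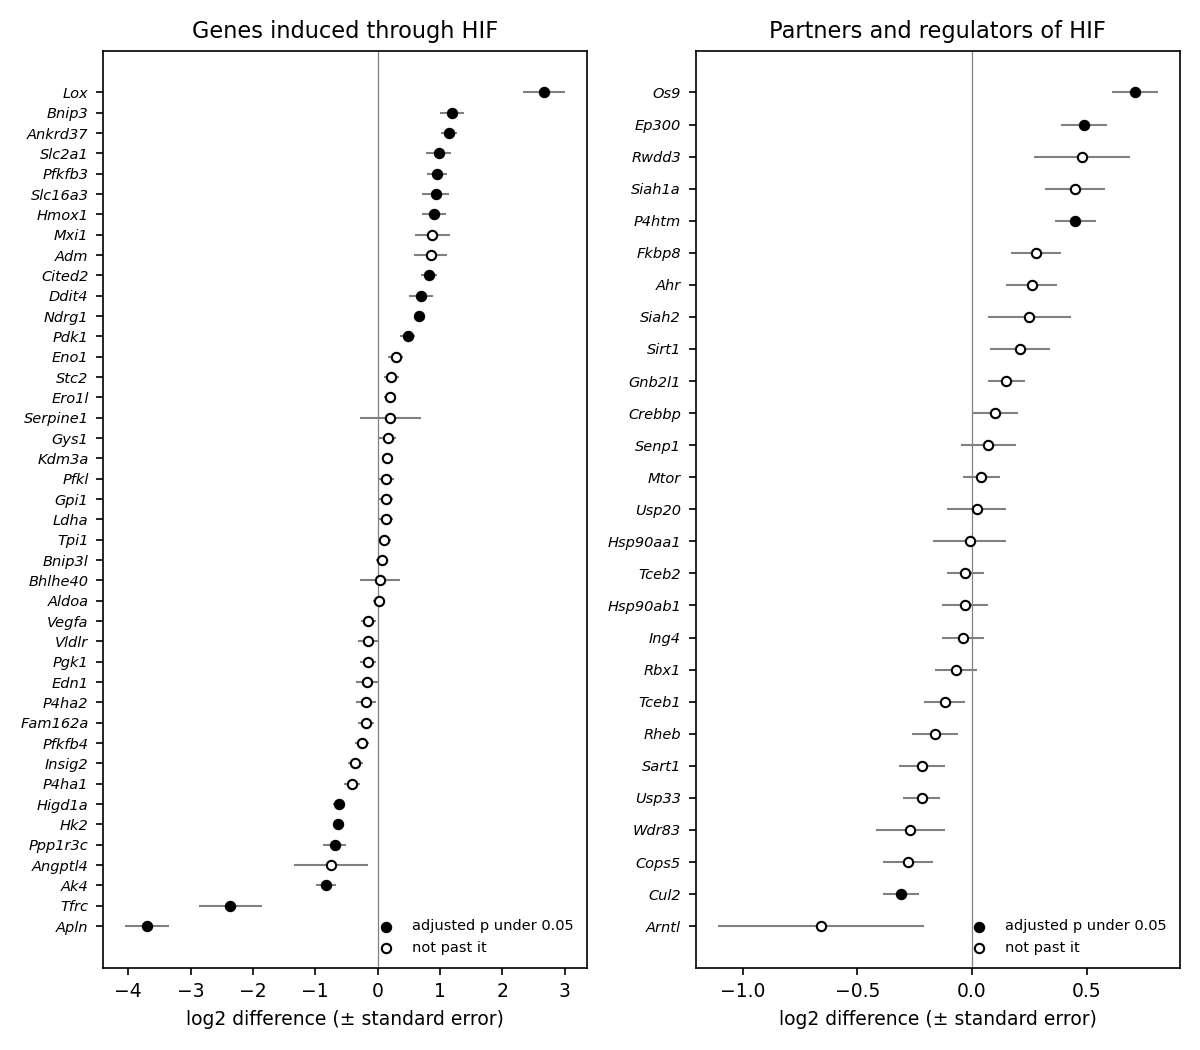
Difference between tail-suspended and sham mouse hearts (log2, ± standard error) for 42 tested genes known to be induced through HIF (left) and tested partners and regulators of HIF (right, 1 of the 28 not drawn). Filled points passed an adjusted p of 0.05 in limma and open points did not. Induced genes run from Apln at -3.70 to Lox at 2.67, whose fitted value rests on sham signals not well above background, and regulators from Arntl at -0.66 to Os9 at 0.71.

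Partners and regulators of HIF differed by smaller amounts. Of 29 listed genes, 28 were tested (not Arnt2), of which 3 were higher, 2 were lower and 23 did not pass, with a median difference of 0.01. Beside the 10.6% and 10.5% of all genes, these counts are near the background. Os9, an endoplasmic reticulum lectin described to bind Hif1a and prolyl hydroxylases, rose by 0.71 ± 0.10 (limma adjusted p = 0.00731). The coactivator Ep300 rose by 0.49 ± 0.10 (limma adjusted p = 0.0237). P4htm, a transmembrane prolyl hydroxylase that can act on HIF alpha, rose by 0.45 ± 0.09 (limma adjusted p = 0.0206). Cul2, the scaffold of the Vhl ligase, gave -0.31 ± 0.08 (limma adjusted p = 0.0407). The ligase Siah2, which targets Egln enzymes, gave 0.25 ± 0.18 (limma adjusted p = 0.352), and Arntl, a clock gene that can pair with alpha subunits, gave -0.66 ± 0.45 (limma adjusted p = 0.328).

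Collagen prolyl and lysyl hydroxylases use the same cofactors as the Egln enzymes on other substrates. Of 10 tested, only Plod3 was called higher, at 0.35 ± 0.09 (limma adjusted p = 0.0393), and 0 were called lower. At an unadjusted p under 0.05 in limma, 2 were lower. Beside the 10.6% and 10.5% of all genes called higher and lower, a single call among 10 is near the background. P4ha1 and P4ha2, among the 10, were also counted with the induced genes. The Plod3 call held in 7 of 17 alternatives (adjusted p from 0.0273 to 0.203), and was lost with slide row as a block. The median difference of the 10 genes was 0.01.

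These list counts fell when slide row entered the fit, where the comparison rests on tail-suspension array 1. Whether slide position or the smaller comparison lowered them was not tested. With slide row as a block in limma, 0 induced genes were higher and 1 was lower, which was Apln at -2.85 (limma adjusted p = 0.0134), while 11 and 7 passed unadjusted. Of the regulators, 0 passed in either direction, with 4 higher and 1 lower unadjusted. Over all genes this fit called 209 higher and 117 lower in place of 1821 and 1808. Within the first row alone, tail-suspension array 1 was set against the 3 sham arrays. The differences there were 2.68 for Lox, 1.24 for Adm, -1.21 for Tfrc and -2.85 for Apln. They were picked from the results of that fit, so nothing is read from them. Lox passed the filter there only through the lone tail-suspension array, where it was high. That fit assumes the lone array to vary like the sham arrays. Leaving out single arrays also moved the list counts, as it did those of all genes. Among all genes, 847 were higher and 722 lower without sham array 1, and 598 and 512 without sham array 2. They were 684 and 609 without tail-suspension array 3, and 1818 and 1683 without tail-suspension array 2. Induced genes higher fell to 6 without sham array 1 and to 7 without sham array 2 or tail-suspension array 3, and induced genes lower to 2 without sham array 2 and 3 without tail-suspension array 3. Regulators higher fell to 1 without sham array 2 or tail-suspension array 3, and regulators lower to 0 without any 1 array other than sham array 3, where 1 was left.

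Marker genes of cell types were read as well, and their part in the results above was not tested. Their counts of called genes stand beside the 10.6% and 10.5% of all genes called higher and lower. Of 5 tested neutrophil genes (of 7 listed), 3 were higher and 0 lower (1 unadjusted), with a median difference of 4.62. This median was 1.82 with normexp, whose offset of 50 draws dim signals together. It was 2.46 over probes well above background on all arrays and 6.00 with slide row as a block. Of the 3, Retnlg entered the fit only through the tail-suspension arrays. Mmp8 and Ngp, the other listed neutrophil genes, were not well above background on every array of either group and were not tested. S100a9 read -0.49, -0.71 and -1.15 in sham and 5.22, 2.61 and 3.67 in tail-suspended mouse hearts. The mean level of the 5 genes ran from -0.72 to -0.30 in sham and from 1.74 to 3.25 in tail-suspended mouse hearts, and the sum of their scaled intensities from 144 to 172 and from 207 to 235. That sum comes mostly from Csf3r, at 7.15 to 7.41 in sham, whose difference was 0.30 ± 0.11 (limma adjusted p = 0.0926). Of 7 tested macrophage genes (of 8 listed, not Cd68) 1 was higher and 0 lower (0 unadjusted), namely Cd163, which entered the fit only through the tail-suspension arrays, with a median of 0.64 and sums of 33.3 to 44.7 and 39.0 to 61.6.

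Of 11 endothelial genes, 2 were higher and 5 lower, with a median of -0.29 and sums of 220 to 232 in sham and 211 to 231 in tail-suspended mouse hearts. Vwf, for one, rose by 0.99 ± 0.10 (limma adjusted p = 0.00284), while Kdr gave -0.55 ± 0.10 (limma adjusted p = 0.0159). Red cell genes gave a median of -1.5 over 5 tested (of 7 listed), with sums of 428 to 689 and 106 to 344, and 0 called by limma against 3 lower unadjusted. The red cell median was -0.19 with no filter on dim probes and -2.25 with slide row as a block. Fibroblast genes gave 1 lower of 8 (Col3a1; 3 unadjusted), with a median of -0.41 (-0.19 with slide row as a block) and sums of 281 to 298 and 279 to 351, which come mostly from Dcn. Smooth muscle and pericyte genes gave 1 lower of 7 (Kcnj8), with a median of 0.22 (0.58 with slide row as a block) and sums of 62.0 to 84.2 and 76.4 to 103. Of 10 cardiomyocyte genes 1 was lower (Actc1), with a median of -0.12 and sums of 5060 to 5310 and 4630 to 4650. In all 3 of these lists 0 were called higher, against 1, 2 and 0 unadjusted. Beside the 10.5% of all genes called lower, 1 gene in each of these lists is near the background.

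HIF binds DNA at elements with the core ACGTG or GCGTG. Promoter sequences of 8 of the 9 members (9 promoters, 2 of them of Egln2) were taken from RefSeq, build GRCm38.p6, each from 250 bases before to 50 after a start site. Members were matched by symbol, and Epas1 had no entry. On either strand ACGTG occurred in 4 of the 9 promoters and in 19.6% of all 32851 promoters of the same length. GCGTG occurred in 5 of the 9 and in 32.4% of all. The 30-base stretches are shown for the members with ACGTG wholly before the start site, with those letters in capitals.
Egln3 promoter: atgtgcatctcagACGTGagatccaggttt
Egln1 promoter: ggggccgtggtgtACGTGcagcgcgcgcgg
Egln2 promoter: aagcctcctgtcaACGTGcggttcgcgcac
Hif1a promoter, distal: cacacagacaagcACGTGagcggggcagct
Hif1a promoter, proximal: ttggctgagagcaACGTGggctggggtggg
The Egln3 stretch lies on the minus strand at chr12:54204087-54204116, with the core starting 229 bases before the start site. The Egln1 stretch lies on the minus strand at chr8:124949306-124949335, with the core 68 bases before it. The Egln2 stretch lies on the minus strand at chr7:27166834-27166863, with the core 48 bases before it. The Hif1a stretches lie on the plus strand at chr12:73907720-73907749 and chr12:73907784-73907813, with the cores 134 and 70 bases before it. The distal Hif1a core overlaps the palindrome CACGTG, an E-box, which was found in 2 of the 9 promoters and in 7.15% of all promoters. In the windows of Hif3a, Arnt, Vhl and Hif1an ACGTG was not found. A match is a description of the sequence and was not tested against binding.

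The differences of the members under the alternatives ranged as follows. Hif3a lay between 2.59, the mean of its tested probes, and 4.02, at probe A_55_P2015541 without sham array 1. Probe A_55_P2015541 itself went no lower than 2.85, with normexp. Egln3 A_52_P387009 lay between -1.17 and -0.90, Vhl between -0.50 and -0.37 and Hif1a A_51_P387608 between -0.43 and -0.22. No member changed direction under the 17 alternatives. The alternative with averaged probes read the mean of a member's tested probes in place of its brightest probe. Of the members called lower, Hif1a stayed past the threshold in 2 of the 17, Vhl in 8 and Egln3 in 15.

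**Figure D5:**
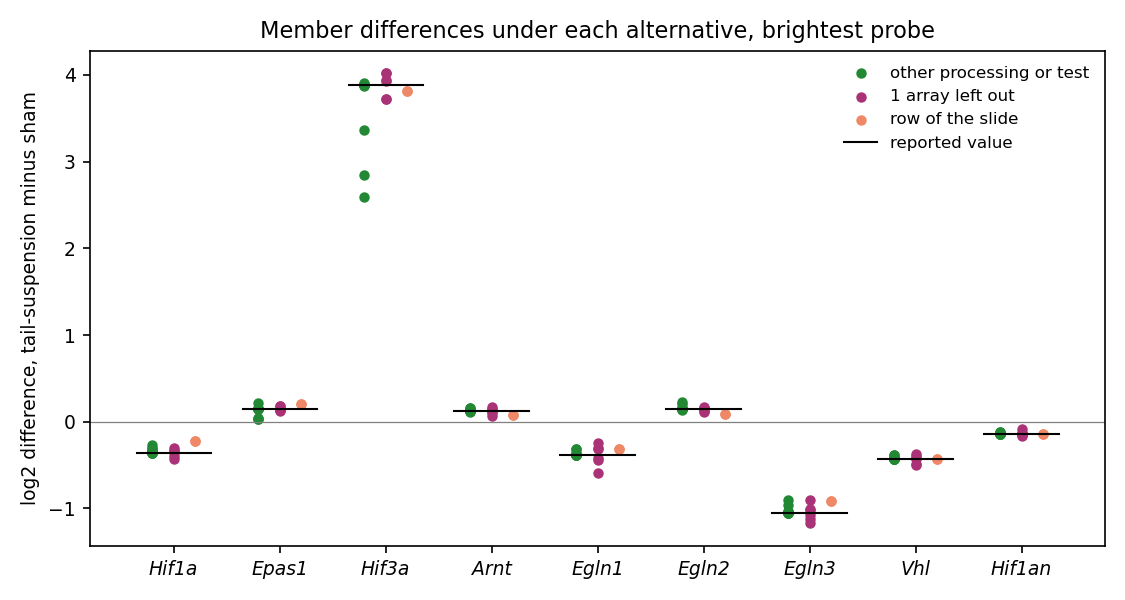
Difference between tail-suspended and sham mouse hearts (log2) at the brightest probe of each member under 17 alternatives (points) beside the reported value (line). With averaged probes the point is the mean of a member's tested probes. Hif3a stays between 2.59 and 4.02 and Egln3 between -1.17 and -0.90, and each of the other genes stays on its side of 0.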

How the data were processed

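Per the labels, RNA was hybridised in 1 colour, and the authors extracted spots with Agilent Feature Extraction 10.7.1.1 as a processed intensity. The authors also deposited log2 values of the 6 arrays, with a median of 4.33 in each. Control and outlier spots were dropped, each array's log2 processed intensity was centred on its 75th percentile in R 4.3.3, and spots of a probe were averaged. The brightest tested probe stood for a gene. Of 55681 probes, the 28032 whose background flag was passed throughout at least 1 group entered limma 3.58.1, with a threshold of 0.05 on the adjusted p. The limma and t-test fits were checked on simulated probe values with known differences, and the steps before them were not. Precision is limited by having 3 arrays a group. Members, lists, alternatives and the naming rule were chosen with earlier results of these data known. Named are all members, up to 4 non-overlapping genes called in each direction of each pathway list, a fixed few targets and regulators whatever their values, and the 3 nearest profiles of 3 members. Marker genes were picked as examples after their values were seen. Some list genes are not reported here by name. The alternatives were normexp on mean and background intensity (offset 50), quantile normalization, a percentile over detected probes, the authors' log2 values, filters removed or made stricter, averaged probes, the methods' t-test, blocks for replicate number and slide row, 1 row alone, and each array left out.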

Additional observations from a re-analysis of the deposited data

How the results depend on the processing

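Counts of members describe values known when the members were chosen and support nothing. Members lower fell from 3 to 1 with no filter, the methods' t-test and the replicate block, and to 0 with slide row as a block, where limma left 2 unadjusted. Induced genes higher fell from 11 to 6 with no filter, 4 with the t-test and 0 with the row block (11 unadjusted). Induced genes lower fell from 6 to 3 with no filter and with the t-test, and 1 with the row block. Regulators higher fell from 3 to 1 with no filter and 0 with the row block (4 unadjusted). Regulators lower fell from 2 to 1 with averaged probes and the t-test, and to 0 with normexp, no filter, the replicate block and the row block (2, 2, 3 and 1 unadjusted, limma). Leaving out 1 array in turn gave 1 to 3 members lower (1 without sham array 1 or 2 or tail-suspension array 1 or 3), 6 to 12 induced genes higher, 2 to 6 lower, 1 to 3 regulators higher and 0 to 1 lower. Among all genes the same fits called 598 to 1818 higher and 512 to 1683 lower. The fit within 1 row leaves 1 tail-suspension array, so its counts are not given. Fewer samples enter the fits with 1 array left out, and without a filter p-values were adjusted over 55681 probes. Otherwise the cause was not tested. Without a filter, all genes called fell from 1821 higher and 1808 lower to 643 and 536, and with the t-test to 953 and 910. With the replicate block they fell to 1031 and 931.

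Replicate numbers did not pair the samples, with correlations of -0.02, -0.018 and 0.05 between the deviations of same-numbered arrays, and the replicate block left Hif3a at 3.89 and Egln3 at -1.05. The 2 dim Hif3a probes are limited by background. The second slide row held tail-suspension arrays alone, so array 1 of that group decides every value within a row.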
